A study of Mus musculus with 12 samples.

Results

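Eyelids of Tabby and wild-type mouse embryos were compared at E16.5 (days of embryonic development) on 4 of the 12 arrays in the series, 2 for each genotype, taken by their labels alone. Each array was a 2-colour hybridisation to 60-base Agilent probes, in which Cy3, the green dye, marked eyelid RNA and Cy5, the red one, a common reference. All 4 eyelid samples were labelled as strain C57BL6/J and as total RNA of microdissected eyelids, 1 genotype wild-type and the other Tabby mutant, with no agent given to either. The reference, the same for every array, was RNA pooled from mouse cell lines and mixed with embryonic stem cell RNA. The remaining 8 arrays, 2 for each genotype at E14.5 and at E15.5, supplied the earlier levels and part of the estimate of spread. The labels call the 2 arrays of a group biological replicates, but give neither the number or sex of the embryos nor the litters behind a sample, so p-values measure only the spread between these samples. The treatment text of the labels is about footpads of other ages, but title, source and tissue all name eyelids. The 4 arrays lay on 1 slide, wild type at positions 1 and 2 and Tabby at positions 3 and 4, so the place of an array and its genotype cannot be told apart.

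Tabby is a mutation of Eda on the X chromosome, the gene for ectodysplasin. This ligand of the tumour necrosis factor family is read by the receptor Edar on epithelial cells, which signals through the adaptor Edaradd to NF-kB, and it is needed for the normal development of hair, teeth, sweat glands and the Meibomian glands. Meibomian glands are the oil glands of the eyelid rim and grow inwards from the lid epithelium; Tabby mice lack them. The series sought genes that depend on Eda while these glands form. In the days sampled, the lids of mouse embryos also fuse over the eye and the epidermis builds up its layers towards cornification.

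Probes are listed by identifier with no symbol, and 0 of them could be tied to a gene with the tables used here. Results are therefore given for probes, with the sequences of those on which the results turn. The level of Eda, the pathway lists and the markers of eyelid cell types could not be read, so the tissue label was not checked against markers. Each value is the log2 ratio of eyelid over reference signal after background correction and loess normalisation, so that a value of 1 means a 2-fold excess of eyelid signal. In whole tissue, fewer cells of a type and less RNA per cell cannot be told apart.

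Of 42006 probes, 31637 entered the test because the eyelid channel was well above background on both arrays of at least 1 genotype (1 further probe lacked a value in a group). Between 73.0% and 77.9% of probes were well above background on the 4 arrays, and no eyelid spot was saturated. Replicates correlated across probes at r = 0.988 in wild type and 0.989 in Tabby, and arrays of different genotype at 0.982 to 0.991. Most probes differed little between the genotypes: the differences of 90% of them, from the 5th to the 95th percentile, lay between -0.18 and 0.16. The differences between replicates had an SD of 0.187 in wild type and 0.177 in Tabby.

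Tabby eyelids were lower at 27 probes (0.0853% of those tested) and higher at 1 probe (0.00316%), in a limma fit with Benjamini-Hochberg adjustment over all probes and a call at an adjusted p under 0.05. Together the calls made up 0.0885% of probes. The 27 lower probes had a median log2 difference of -1.10, a 2.14-fold lower ratio, with a range from -2.43 to -0.42. At least 2-fold lower were 14 of them. All 28 were well above background on all 4 arrays, and their genotypes did not overlap in any case. Across the whole array, groups did not overlap with Tabby below at 14.3% of probes and with Tabby above at another 14.3%. An unadjusted limma p under 0.05 was found for 1253 probes (3.96%), 778 lower (2.46%) and 475 higher (1.5%).

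**Figure D1:**
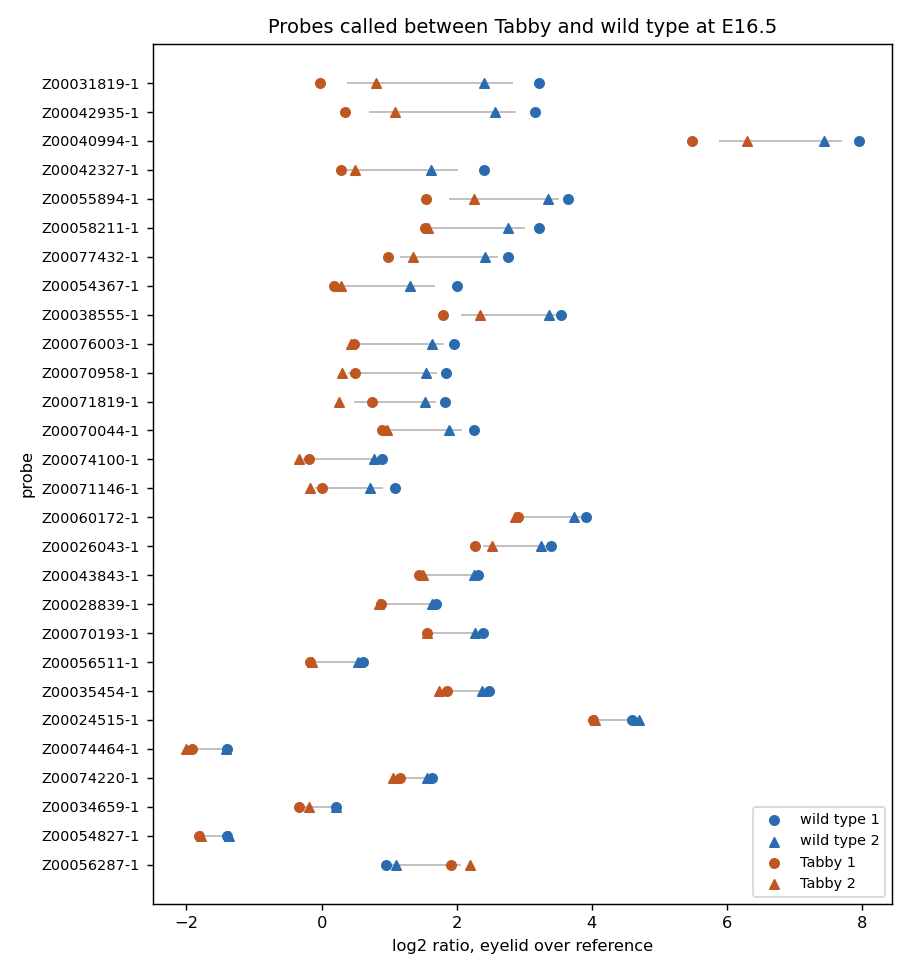
Log2 ratio of eyelid over reference (horizontal axis) on each of the 4 E16.5 arrays for the 28 called probes (vertical axis), ordered by genotype difference; circles are replicate 1, triangles replicate 2, and grey lines join the group means. The blue wild-type points lie to the right of the orange Tabby points in the upper 27 rows and to the left in the last row, Z00056287-1.

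Larger differences lay mostly on the lower side. A difference of at least 1.5-fold was found at 139 probes lower and 22 higher in Tabby, one of at least 2-fold at 44 and 6, and one of at least 4-fold at 5 and 0. Of the 2-fold probes, 36 of those lower and 2 of those higher had genotypes that did not overlap. The replicates themselves differed 2-fold or more at 110 probes in wild type and 62 in Tabby. These are gaps between single arrays, which vary more than differences between means of 2, so the counts are not on 1 scale. The balance moved with the scaling. At 2-fold, the counts lower and higher were 30 and 6 with median centring, 158 and 88 with processed signals and loess, and 156 and 79 with the eyelid channel alone. With the ratio of the scanner software, Feature Extraction, they were 131 and 120.

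**Figure D2:**
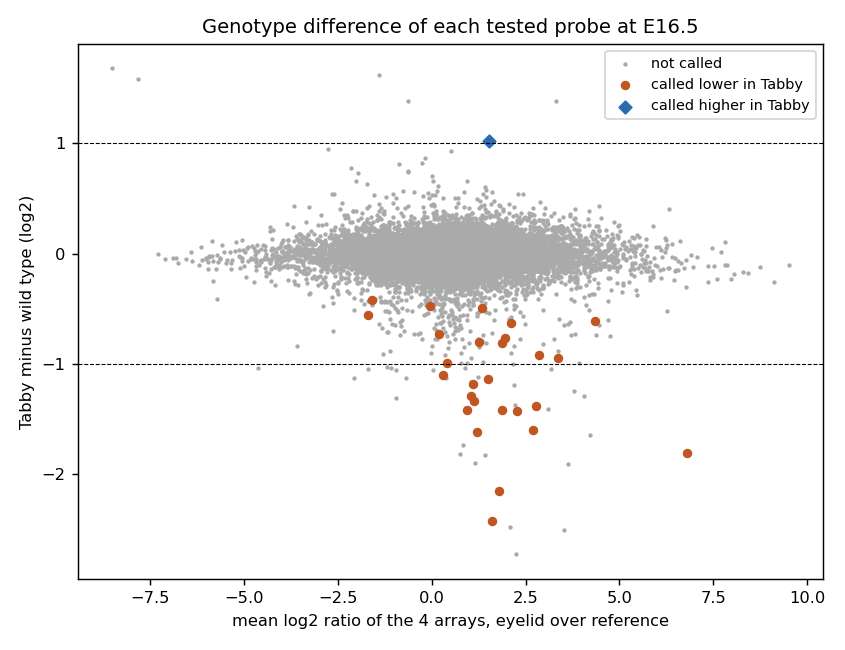
Tabby minus wild-type log2 difference (vertical axis) against the mean log2 ratio of the 4 arrays (horizontal axis) for the 31637 tested probes; orange points were called lower, the blue diamond was called higher, grey points were not called and dashed lines mark 2-fold. Most probes lie in a band about 0, and points beyond the lower line, 44 in number, outnumber the 6 beyond the upper one.

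The 27 lower probes were not alike in their earlier course. In 6 of them, well above background on all earlier arrays, Tabby also lay below wild type without overlap at both E14.5 and E15.5. Of all tested probes, 3.85% met that description of the earlier arrays, and 0.699% met it and had Tabby below without overlap at E16.5 too. The other 21 did not meet that description. Their median genotype difference was -1.29 at E16.5, against -0.06 at E15.5 and 0.01 at E14.5. Tabby lay below wild type without overlap at 5 of the 21 at E15.5 and at 4 at E14.5. The share of all tested probes at either day alone was not counted. At Z00040994-1 Tabby was below without overlap on both days, but not all its E14.5 readings were well above background. In wild type the mean of each of these 21 at E16.5 stood between 1.16 and 7.89 above its mean at E15.5, with a median of 2.69, and in Tabby between 0.28 and 6.27, with a median of 1.38. Only 8 of the 21 were well above background on all 8 earlier arrays, 11 were on some and 2 on none, which limits any difference that could have been seen before E16.5.

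**Figure D3:**
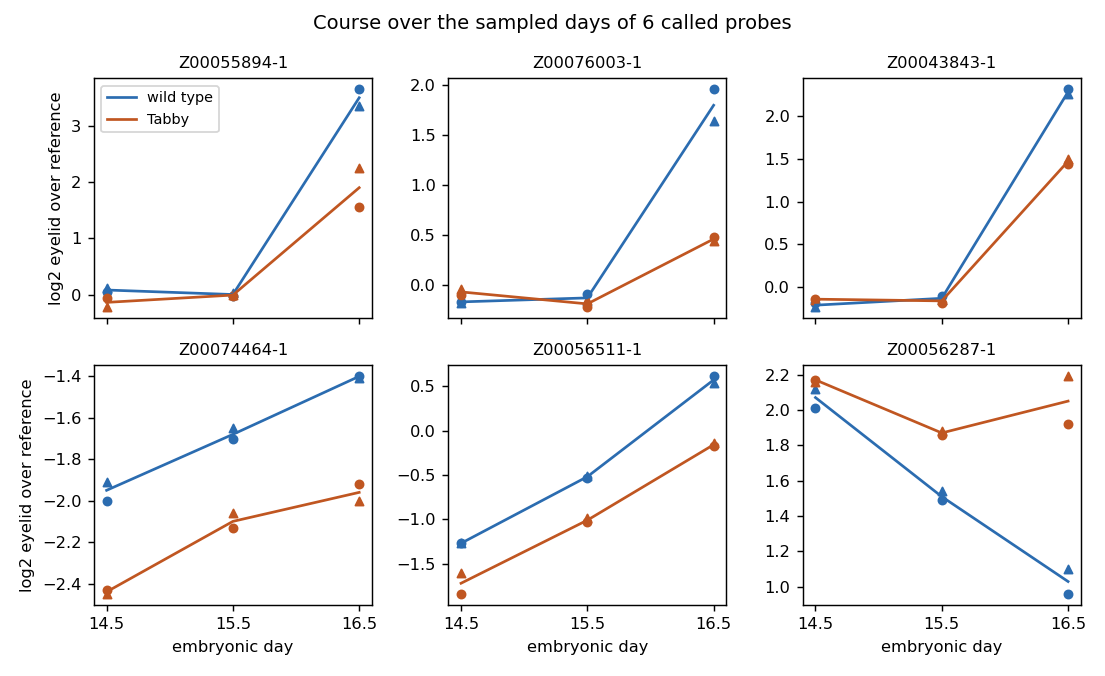
Log2 ratio of eyelid over reference (vertical axis, scaled for each panel) against embryonic day (horizontal axis) for 6 called probes, wild type in blue and Tabby in orange; lines join group means, circles are replicate 1 and triangles replicate 2. The top row shows probes at which the genotypes separated at E16.5, and the bottom row 2 probes with Tabby below wild type on every day and Z00056287-1, at which the wild-type values at E16.5, 0.96 and 1.10, are the lowest of the panel.

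Several of the largest differences belonged to probes with partly matching sequences, shown here because such probes may pick up each other's transcripts. Capitals mark the bases that local alignment matched to Z00031819-1, or, in Z00031819-1 itself, to Z00059773-1.
Z00031819-1: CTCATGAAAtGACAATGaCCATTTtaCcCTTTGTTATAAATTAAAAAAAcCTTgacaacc
Z00059773-1: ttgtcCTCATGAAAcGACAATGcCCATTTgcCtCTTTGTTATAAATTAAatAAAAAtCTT
Z00055894-1: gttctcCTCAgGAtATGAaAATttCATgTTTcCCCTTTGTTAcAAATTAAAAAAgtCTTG
Z00038555-1: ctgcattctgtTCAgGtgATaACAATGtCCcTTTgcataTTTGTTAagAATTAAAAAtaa
Z00031819-1 matched Z00059773-1 at 47 of 55 aligned positions, Z00055894-1 at 44 of 55 and Z00038555-1 at 33 of 46. Among 1275 pairs made from the 28 called probes and the 23 others that were at least 2-fold apart without overlap, 11 pairs aligned with a score of 20 or more, and 9 of these joined members of this set of 4 or Z00041156-1, which has a run of 40 bases in common with Z00059773-1. The set was drawn up from these alignments, and how often other pairs on the array reach that score was not counted. Z00038555-1 scored only 20 with Z00031819-1 and with Z00055894-1.

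Both Tabby arrays read below both wild-type arrays at each of these probes. Only called probes and probes chosen for not overlapping were aligned, so this lack of overlap is no result of the alignment. A search of all probes for shared runs of at least 16 bases also paired Z00038555-1 with Z00074075-1, which was not lower in Tabby. Z00074075-1 read -0.06 and -0.29 in wild type and -0.01 and -0.01 in Tabby (difference 0.16, SE 0.0846, limma adjusted p = 0.999). The size of the difference depended on the correction at Z00055894-1 and Z00038555-1. Z00031819-1 read 3.22 and 2.41 in wild type and -0.03 and 0.80 in Tabby, a difference of -2.43 (SE 0.297, limma adjusted p = 0.033). Z00055894-1 read 3.65 and 3.35 in wild type and 1.55 and 2.25 in Tabby, a difference of -1.60 (SE 0.192, limma adjusted p = 0.0299). Z00038555-1 read 3.54 and 3.37 against 1.80 and 2.35, a difference of -1.38 (SE 0.157, limma adjusted p = 0.025). In all 3, wild-type replicate 1 was highest and Tabby replicate 1 lowest, and the Tabby replicates lay further apart than the wild-type ones in Z00055894-1 and Z00038555-1. With processed signals and loess the differences of Z00031819-1, Z00055894-1 and Z00038555-1 were -2.62, -0.43 and -0.62, and with the Feature Extraction ratio -2.62, -0.40 and -0.58. On eyelid signal alone they were -3.79, -3.57 and -3.44, so these 3 probes had like values there and not in the processed ratios. Z00059773-1 had the lowest difference of all probes tested and was not called: it read 3.97 and 3.27 in wild type and 0.31 and 1.47 in Tabby (difference -2.73, SE 0.396, limma adjusted p = 0.0647). Z00041156-1, at 3.56 and 3.10 against 0.32 and 1.37, was likewise not called (difference -2.48, SE 0.338, limma adjusted p = 0.0534). At E14.5 and E15.5 the means of the 3 called members lay between -0.88 and 0.08 in both genotypes, where most readings were not well above background. Z00059773-1 was well above background on all 8 earlier arrays and read between -1.83 and -0.93 there, in both genotypes below its E16.5 readings.

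Z00042935-1 and Z00040994-1 had the next largest called differences after Z00031819-1. Z00042935-1 stood at 3.16 and 2.57 in wild type and 0.34 and 1.09 in Tabby (difference -2.15, SE 0.242, limma adjusted p = 0.025), with means of -0.02 and -0.07 at E15.5. Z00040994-1 gave the highest ratio of the called probes, 7.95 and 7.44 in wild type and 5.48 and 6.29 in Tabby (difference -1.81, SE 0.237, limma adjusted p = 0.0475). On the E15.5 arrays its mean was -0.20 for wild type and -0.38 for Tabby, so the E16.5 readings of both genotypes stood far above the earlier ones while the Tabby ratio was 3.49-fold lower. With processed signals Z00042935-1 differed by -1.29 and Z00040994-1 by -1.45. At both probes the Tabby replicates lay closer to each other than to either wild-type array. With the 4 E16.5 arrays alone the SE was 0.288 at Z00042935-1 and 0.287 at Z00040994-1 (limma adjusted p = 0.311 and 0.452).

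A pair of called probes that share 36 bases gave like genotype differences in the fit as reported, at different levels. The sequences are shown with the shared run in capitals, together with Z00026084-1, which shares 28 of those bases.
Z00060172-1: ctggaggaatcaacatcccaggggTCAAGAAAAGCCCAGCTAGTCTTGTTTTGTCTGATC
Z00026043-1: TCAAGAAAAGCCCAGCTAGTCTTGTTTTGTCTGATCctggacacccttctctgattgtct
Z00026084-1: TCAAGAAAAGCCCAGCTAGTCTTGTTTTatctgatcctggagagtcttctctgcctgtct
Z00060172-1 read 3.92 and 3.74 in wild type and 2.90 and 2.86 in Tabby (difference -0.95, SE 0.0779, limma adjusted p = 0.00738). Z00026043-1 read 3.39 and 3.24 against 2.27 and 2.52 (difference -0.92, SE 0.0993, limma adjusted p = 0.0247). Z00026084-1 read 4.27 and 4.06 against 3.31 and 3.57 and was not called (difference -0.73, SE 0.111, limma adjusted p = 0.0753). With processed signals and loess the differences of Z00060172-1 and Z00026043-1 were -0.36 and -0.60, and on eyelid signal alone -1.69 and -1.63. All 3 probes had Tabby below wild type without overlap, but as they share bases they are not separate measurements.

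Z00070958-1 and Z00071819-1 carry 1 identical sequence at different places on the array and so show the technical spread of a reading.
Z00070958-1: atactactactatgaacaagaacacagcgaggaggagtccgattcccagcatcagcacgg
The first read 1.84 and 1.54 in wild type and 0.50 and 0.30 in Tabby (difference -1.29, SE 0.106, limma adjusted p = 0.00738). The second read 1.83 and 1.53 in wild type and 0.74 and 0.26 in Tabby (difference -1.18, SE 0.154, limma adjusted p = 0.0475). The copies read nearly the same on the wild-type arrays and on Tabby replicate 2, and differed most on Tabby replicate 1. With processed signals the copies came apart, at -1.78 and -0.63, although their sequence is the same.

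Z00043843-1 and Z00076003-1 had the lowest p of all probes, and their sequences are given for that reason.
Z00043843-1: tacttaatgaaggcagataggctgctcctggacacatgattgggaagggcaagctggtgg
Z00076003-1: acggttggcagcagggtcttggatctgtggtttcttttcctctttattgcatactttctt
Z00043843-1 read 2.31 and 2.25 in wild type and 1.44 and 1.50 in Tabby (difference -0.81, SE 0.0494, limma adjusted p = 0.00249). Z00076003-1 read 1.96 and 1.64 in wild type and 0.48 and 0.44 in Tabby (difference -1.34, SE 0.0925, limma adjusted p = 0.00356). Z00058211-1 read 3.22 and 2.76 against 1.53 and 1.58 (difference -1.43, SE 0.122, limma adjusted p = 0.0076). In each of the 3, the space between the genotypes was wider than that between replicates. With processed signals they differed by -0.91, -1.44 and -0.91. Their means at E15.5 lay between -0.19 and -0.11 in both genotypes.

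Whether the E16.5 difference departed from the earlier ones was tested with the E16.5 difference minus the mean of those at E14.5 and E15.5. This contrast was called at 5 probes, all lower at E16.5 (0.0158% of probes), and at 0 in the other direction (0%); 1289 probes (4.07%) had an unadjusted limma p under 0.05. The 5 were Z00043843-1, Z00076003-1, Z00058211-1, Z00060172-1 and Z00070958-1, with contrasts of -0.83, -1.36, -1.50, -0.91 and -1.24 and limma adjusted p of 0.0115, 0.0168, 0.0429, 0.0429 and 0.0429. For the remaining 22 lower probes and the higher one the contrast did not pass, which does not show that their difference was equal at all stages. With the replicate number as a block, 0 probes were called for this contrast, and 0 also with median centring or on eyelid signal alone. The contrast of Z00060172-1 was -0.13 with processed signals, -0.16 with the Feature Extraction ratio and -1.71 on eyelid signal alone. Those of the other 4 kept within 1.5-fold of their size except on eyelid signal alone, where they were larger. Leaving out single arrays gave counts from 0 to 40. The count was 40 without wild-type E16.5 replicate 2, 16 without wild-type E16.5 replicate 1, and 12 without either Tabby E16.5 replicate 2 or wild-type E15.5 replicate 2. It was 2 without wild-type E15.5 replicate 1, and 0 without Tabby E16.5 replicate 1 or any 1 of the Tabby E15.5 and the E14.5 arrays.

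The remaining 9 of the 21 probes spanned a wide range of differences. Z00042327-1, Z00077432-1, Z00054367-1 and Z00070044-1 differed by -1.62, -1.42, -1.42 and -1.14. Z00071146-1, Z00070193-1, Z00035454-1, Z00024515-1 and Z00074220-1 differed by -0.99, -0.77, -0.63, -0.61 and -0.49. For these 9 probes the limma adjusted p ran from 0.021 to 0.0497. With processed signals Z00070044-1 differed by -0.65 and Z00070193-1 by -1.80, the latter with a wide error (SE 0.936, limma adjusted p = 0.858). Z00024515-1 differed by -0.26 with median centring and by -2.07 on eyelid signal alone. Z00024515-1 was bright in both groups, at 4.60 and 4.69 in wild type and 4.02 and 4.05 in Tabby.

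Within wild type, the 21 probes also mostly moved in the same direction between replicates. Wild-type replicate 1 was above wild-type replicate 2 in 20 of the 21, and Tabby replicate 2 was above Tabby replicate 1 in 13. In 12 of the 21 the order from high to low was wild type 1, wild type 2, Tabby 2 and Tabby 1. Among all tested probes whose replicates lay at least 1.25-fold apart, replicate 2 was higher at 1060 of 1688 in wild type and at 882 of 1717 in Tabby. The wild-type readings of the 21 probes thus did not vary independently of each other. The number of probes is not a number of separate observations.

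The reference channel moved with the eyelid channel at many of these 21 probes, although the labels describe 1 reference for all arrays. Its processed signal was at least 2-fold lower on the Tabby arrays at 11 of the 21, with a median log2 difference of -1.04 and a range from -3.16 to 0.95. Among all 31637 tested probes it was at least 2-fold lower at 100 and higher at 70. The 0.95 belonged to Z00070193-1, where the reference was dim, at 10 and 2.7 in wild type and 29.6 and 4.5 in Tabby. At Z00055894-1 the reference signal was 564 and 240 on the wild-type arrays and 30.6 and 72.7 on the Tabby arrays, where the eyelid signal was 7310 and 3010 against 282 and 737. The reference signal there was 7.72% and 7.97% of the eyelid signal in wild type and 10.9% and 9.86% in Tabby. Eyelid signal without the reference gave larger genotype differences, with a median of -2.08 over the 21 probes, but 0 probes on the array were called on it (1919 at an unadjusted limma p under 0.05). The part of this movement in the ratios was not tested.

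The 6 probes chosen for being lower at every stage differed by -1.10 to -0.42 at E16.5. Their median log2 difference was -0.65 at E16.5, -0.41 at E15.5 and -0.40 at E14.5. The earlier arrays share no sample with the E16.5 comparison, though position and genotype are joined on those slides too. The reference channel differed by -0.27 to 0.08 at these probes, and the eyelid channel alone gave a median difference of -0.61. Z00074464-1 and Z00054827-1 are shown because the last 8 bases of the first are the first 8 of the second, in capitals.
Z00074464-1: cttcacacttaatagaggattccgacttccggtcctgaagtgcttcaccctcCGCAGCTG
Z00054827-1: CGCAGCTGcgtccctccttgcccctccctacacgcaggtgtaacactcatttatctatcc

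Z00074464-1 read -1.40 and -1.41 in wild type and -1.92 and -2.00 in Tabby at E16.5 (difference -0.56, SE 0.0544, limma adjusted p = 0.0173). Its wild-type mean was -1.68 at E15.5 and -1.95 at E14.5, with Tabby at -2.10 and -2.44. Z00054827-1 read -1.40 and -1.37 against -1.81 and -1.79 (difference -0.42, SE 0.0497, limma adjusted p = 0.0299), and differed by -0.29 at E15.5 and -0.31 at E14.5. On these probes the reference gave more signal than the eyelid in every sample, and the wild-type and Tabby pairs were separated by more than their own spread.

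Z00056511-1 stood at 0.61 and 0.54 in wild type and -0.17 and -0.14 in Tabby (difference -0.73, SE 0.0756, limma adjusted p = 0.021). Its wild-type means were -1.27 at E14.5 and -0.52 at E15.5, and its Tabby means -1.72 and -1.01, so that Tabby differed by -0.46, -0.48 and -0.73 on the 3 days. Z00028839-1 read 1.70 and 1.63 against 0.88 and 0.85 (difference -0.80, SE 0.081, limma adjusted p = 0.0209), with -0.40 at E15.5 and -0.45 at E14.5. Z00034659-1 read 0.22 and 0.21 against -0.34 and -0.19 (difference -0.48, SE 0.0602, limma adjusted p = 0.0346). Z00074100-1 had the largest difference of the 6, with 0.90 and 0.78 in wild type and -0.18 and -0.33 in Tabby (difference -1.10, SE 0.13, limma adjusted p = 0.0299). It differed by -0.53 at E15.5 and by -0.35 at E14.5, and the contrast of E16.5 with the earlier stages did not pass (limma adjusted p = 0.843). With median centring Z00034659-1 and Z00054827-1 differed by -0.30 and -0.26 at E16.5, and with processed signals by -0.48 and -0.41.

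Over all 27 lower probes, the difference was below 0 in 25 at E15.5 and in 14 at E14.5, and at both in 13. Among all tested probes these shares were 46.4%, 46.5% and 23.9%. At E15.5 the values of the 27 ran from -0.53 to 0.03, most of them close to 0.

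The single probe higher in Tabby was Z00056287-1, the only called probe that differed in this direction, and its sequence is given for that reason.
Z00056287-1: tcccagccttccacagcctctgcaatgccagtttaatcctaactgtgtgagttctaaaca
It read 0.96 and 1.10 in wild type and 1.92 and 2.19 in Tabby (difference 1.02, SE 0.0886, limma adjusted p = 0.0076), a 2.03-fold higher ratio. Its wild-type mean stood at 2.07 at E14.5, 1.51 at E15.5 and 1.03 at E16.5, and in Tabby at 2.17, 1.87 and 2.05. Tabby at E16.5 thus read close to its E14.5 level, whereas wild type stood below its own. The reference signal was 898 and 875 on the wild-type arrays and 958 and 1170 on the Tabby arrays, and the eyelid signal 1670 and 1790 against 3590 and 5170. The probes with the next smallest p among those higher, named after their values were seen, were Z00050103-1 and Z00064496-1. They differed by 0.57 and 0.70 and did not pass (limma adjusted p = 0.0647 and 0.0767).

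Many of the largest differences were not called. Of the 36 probes that were at least 2-fold lower without overlap, 14 were called and 22 were not (limma adjusted p 0.0534 to 0.999). In 14 of the 22 the wild-type mean at E16.5 was at least 1 above that at E15.5. In 9 of the 22 the SD of a group exceeded 0.5. An SD above 0.5 also occurred among the 14 called, at Z00031819-1, Z00042935-1, Z00040994-1 and Z00042327-1. Z00077373-1 and Z00036698-1, singled out after their values were seen, were the 2 probes called when only the 4 E16.5 arrays entered the fit, a fit that shared 0 calls with the one reported. Z00077373-1 read 4.59 and 4.60 in wild type and 2.65 and 2.71 in Tabby, a difference of -1.91 (limma adjusted p = 0.00764 with these 4 arrays and 0.321 with all 12). Its wild-type E15.5 arrays read 2.79 and 4.06, a spread that the fit on 12 arrays takes into account. Z00036698-1 read 1.59 and 1.75 against -0.16 and -0.14, a difference of -1.82 (limma adjusted p = 0.012 with 4 arrays and 0.062 with 12). It was also lower in Tabby without overlap on the E14.5 and E15.5 arrays, and Tabby E15.5 replicate 2 read 0.87 where replicate 1 read -0.10.

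Some probes set 1 array apart from the other 3 rather than the genotypes from each other. Among probes well above background on all 4 arrays, the 3 largest gaps between Tabby replicates were at Z00074503-1, Z00009495-1 and Z00026029-1. These 3 were named after their values were seen. Z00074503-1 read -9.35 and -9.34 in wild type and -9.26 and -6.07 in Tabby, and Z00009495-1 read -8.67, -8.54, -8.57 and -5.49 in the same order. Z00026029-1 read 2.61 and 2.62 in wild type and 2.61 and 5.38 in Tabby. Tabby replicate 2 alone was high at all 3, and none of the 3 genotype differences passed (limma adjusted p = 0.999). These probes also varied among earlier arrays of 1 genotype: at E15.5, Z00074503-1 read -5.55 and -9.10 in wild type and -8.30 and -5.60 in Tabby. In wild type the widest gap among probes well above background on all 4 arrays was at Z00054605-1. It read 0.49 in replicate 1 and -3.50 in replicate 2, with Tabby at -2.08 and -3.18.

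Detection differed between the genotypes in the other direction from the calls. Well above background on both Tabby arrays but not on both wild-type arrays were 1342 probes, and 109 were so in wild type only. The median difference was 0.03 for the former and -0.14 for the latter, and 0 probes of either kind were called. The share of probes well above background was 75.2% and 73.0% on the wild-type arrays and 76.1% and 77.9% on the Tabby arrays.

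The calls depended on which arrays and which correction were used. Of 24 alternatives, 14 left every E16.5 difference as it was and changed only its error, and 4 left out an E16.5 array, which cannot turn groups that do not overlap. The 6 that changed scaling or background could turn a direction, and turned none of the 28. In size, 8 probes were over 1.5-fold smaller and 1 larger with processed signals, and 14 were larger on eyelid signal alone. The fit without Tabby E16.5 replicate 1 called 4 probes, and the fit without wild-type E16.5 replicate 2 called 67, of which 23 were among the 28. A similar count did not mean the same probes: 30 were called without wild-type E16.5 replicate 1, but 8 of the 28 were among them, and of 24 called without Tabby E16.5 replicate 2, 14 were. Leaving out 1 array of an earlier group kept each E16.5 difference as it was. The number of calls fell without a wild-type E14.5, Tabby E14.5 or Tabby E15.5 array, and rose without a wild-type E15.5 array. Neither the scanner software's ratio nor the authors' values gave a call (0 each), with 2008 and 2007 probes at an unadjusted limma p under 0.05. The 24 alternatives are not separate checks. Within an earlier group, leaving out replicate 1 or replicate 2 gave nearly the same E16.5 fit as each other, and the authors' values nearly repeated the Feature Extraction ratio. The calls that held under 17 or more of the 24 alternatives, most of which keep the estimate, were those of Z00076003-1, Z00043843-1, Z00070958-1, Z00056287-1, Z00058211-1 and Z00060172-1. The differences of the last pair were among those over 1.5-fold smaller with processed signals. Most of the others, 21 of 28, held under 11 or fewer.

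**Figure D4:**
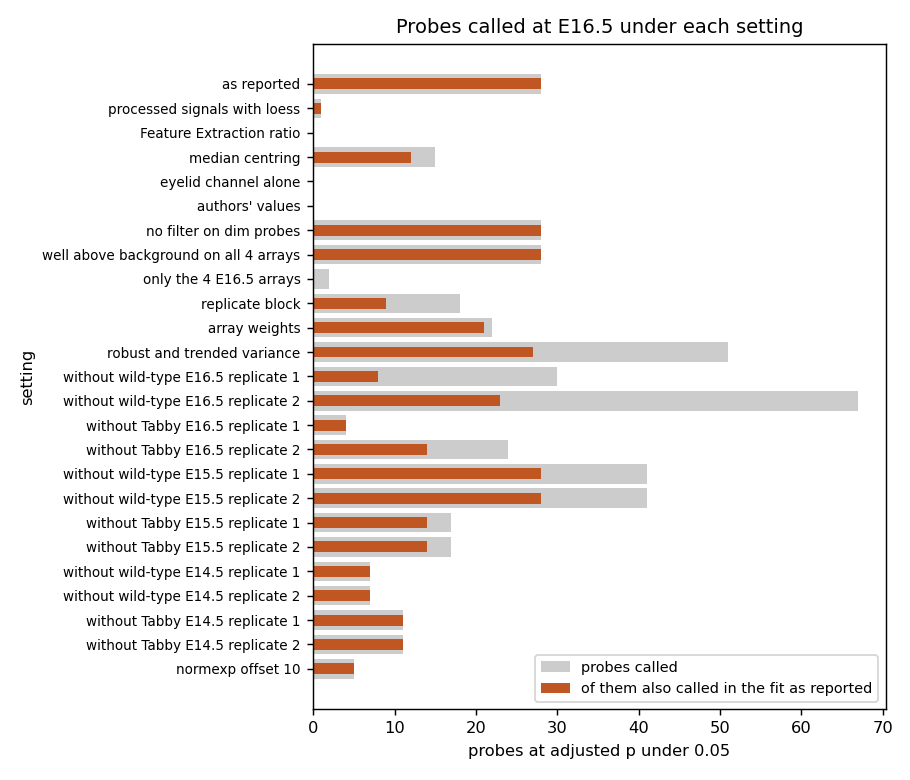
Number of probes called at E16.5 (horizontal axis, adjusted p under 0.05) under each setting (vertical axis); grey bars give all calls and the narrower orange bars those among the 28 of the fit as reported. Counts run from 0 to 67, and the fit on the 4 E16.5 arrays alone shares 0 of its 2 calls with it.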

How the data were processed

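RNA of 12 eyelid samples was measured on 2-colour arrays, of which the 4 of E16.5 were compared. For every spot the deposited files hold an intensity for either dye, a processed signal and a log10 ratio of reference over eyelid. Feature Extraction (Agilent, version 9.5.1.1) made them, per the file headers. The deposited table of the authors' own log10 values, with scale, centring and direction not given in the sources used here, served as an alternative only; its columns, with medians of 2.33 to 2.35, correlated at r = 1 with log10 eyelid signal less the deviation of log10 reference signal from that probe's mean, so its values rise with eyelid RNA.

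Intensities were corrected in limma 3.58.1 (R 4.3.3) by normexp with an offset of 50 and normalised by loess within each array, the 1417 control spots having weight 0. Control spots and outlier spots were left out, repeated probes were averaged, and the sign was turned to eyelid over reference. The offset is added to both channels, so it draws ratios of dim spots towards 0 and, where the reference is dim and moves with the eyelid signal, can make a genotype difference larger or smaller. Arrays limit precision by their number.

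Means of 6 groups were fitted to all 12 arrays (lmFit, eBayes, 2-sided, 6 residual degrees of freedom); fitting was tested on simulated data. The 6 groups share 1 error for each probe. Little spread among earlier readings near background can thus make the SE at E16.5 smaller than the E16.5 arrays alone would give. Each stage had its own slide and scan, so stage and slide cannot be told apart. The members, lists and tests were chosen with earlier results of these data known. Every called probe was to be named. Gene lists, marker checks and other rules that needed gene names could not be used.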

Additional observations from a re-analysis of the deposited data

Results flagged for a closer look

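The genotype difference at E16.5 differed from the mean of those at E14.5 and E15.5 at 5 probes, by a limma contrast. The contrast was -1.36 for Z00076003-1 (SE 0.113, limma adjusted p = 0.0168) and -0.83 for Z00043843-1 (SE 0.0605, limma adjusted p = 0.0115). It was -1.50 for Z00058211-1 (SE 0.149), -0.91 for Z00060172-1 (SE 0.0955) and -1.24 for Z00070958-1 (SE 0.129), each with a limma adjusted p of 0.0429. For Z00060172-1 it was -0.13 with processed signals, -0.16 with the Feature Extraction ratio and the authors' values, and -1.71 on eyelid signal alone. Among these, Z00076003-1 was well above background on all 8 earlier arrays, and the other 4 were on some of them.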

How the results depend on the processing

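All 28 called probes kept their direction under the 6 alternatives of scaling or background, where 18 of 168 results remained called. Of these 6, the Feature Extraction ratio and the authors' values gave nearly the same differences and are not separate checks. The other 18 alternatives could not turn a direction. The 28 calls (27 lower, 1 higher) became 1 (1 and 0) with processed signals and loess, 0 (0 and 0) with the Feature Extraction ratio, with eyelid signal alone and on the authors' values, 15 (14 and 1) with median centring, and 2 (2 and 0) with the 4 E16.5 arrays alone. They became 51 (48 and 3) with robust and trended variance and, in an alternative chosen after seeing the data, 5 (4 and 1) with a normexp offset of 10. Leaving out 1 array gave 4 to 67 calls, 3 to 65 lower and 1 to 4 higher; a lone array was assumed to vary like the other groups. With no filter, all 4 arrays well above background or array weights there were 28, 28 and 22.

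The 5 calls of stage dependence became 0 with processed signals, the Feature Extraction ratio, median centring, eyelid signal alone and the authors' values (1745, 1739, 288, 1454 and 1734 probes at an unadjusted limma p under 0.05), 1 with an offset of 10, and 0 to 40 without 1 array. The causes were not tested.

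With the replicate number as a block, 18 probes were called at E16.5, 17 lower and 1 higher, of which 9 were among the 28, and 0 for stage dependence (1443 at an unadjusted limma p under 0.05). The labels give no litters, so whether the numbers pair samples is not known. Same-numbered deviations of the 2 genotypes correlated across probes at 0.245 at E16.5, so they were partly shared there. The correlation was 0.0129 at E15.5 and -0.0744 at E14.5. The median-per-gene alternative was not run, as no probe had a gene name. Signal over background limits what can be seen before E16.5 at the 11 lower probes well above background on some earlier arrays and the 2 on none.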
